A study of Mus musculus with 24 samples.

Results

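The peaks described here were 1170 chromatin-accessibility peaks at gene starts whose mean signal was higher in germinal centre (GC) B cells of mice heterozygous for both Crebbp and Kmt2d than in those of control mice. They were selected on measured values out of 65483 consensus peaks of an ATAC-seq experiment, in which a transposase inserts sequencing adapters into open DNA. A peak was kept when it lay on an autosome, within 1 kb of the start of any GENCODE transcript. It also had to have a mean of 3 CPM or more in the double heterozygotes, and a log2 ratio of that mean to the control mean of 0.4 or more, with 0.1 CPM added to both. CPM are fragments in the peak after scaling each library to 1000000 fragments in all peaks. Of 18650 autosomal peaks within 1 kb of a start, 15184 had a CK mean of 3 CPM or more, and these are called promoter peaks throughout. The 1170 opening promoter peaks are those of them past the log2 ratio. Because CK and WT values chose the peaks, the gain of CK over WT is a description and was not tested.

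The study asked how heterozygous loss of the acetyltransferase gene Crebbp and of the methyltransferase gene Kmt2d, alone and together, changes the chromatin of GC B cells. Splenic GC B cells came from mice of C57BL/6J background, 8 weeks of age, 10 days after immunization with sheep red blood cells, an antigen that elicits GCs with T cell help. All groups, the controls included, carried 1 Cg1Cre allele (Cg1Cre+/-), which expresses Cre in B cells after activation, so that floxed alleles are deleted in GC B cells and not in most other cells. WT mice (n = 4) carried no floxed allele, C mice (n = 4) carried Crebbp fl/+, K mice (n = 4) carried Kmt2d fl/+, and CK mice (n = 5) carried both. Each library is 1 mouse, and the count of fragments in peaks ranged from 17483706 to 21857738.

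CREBBP is a coactivator that acetylates histones at enhancers and promoters, and KMT2D is a histone methyltransferase that marks enhancers. Both genes are among the most often mutated in follicular lymphoma, a tumour of GC B cells, where the mutations are often heterozygous. Gene starts are usually accessible in all cells when they lie in CpG islands, stretches rich in C, G and the CG dinucleotide, whether or not the gene is much transcribed. Islands of developmental genes are often held by Polycomb proteins, which keep such genes silent in cells that do not use them. ATAC-seq counts insertions over a mixture of cells, so a higher value can mean more cells with an open site or a more open site per cell, and these cannot be told apart.

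All 10 GC B cell marker genes had promoter peaks, and their summed signal lay between 802 and 927 CPM in the 17 mice. Of 10 T cell genes, 8 had no promoter peak, Cd3e, Cd3g, Cd4 and Cd8a among them, and the summed signal of the other 2 ranged from 48.1 to 61 CPM with overlapping ranges in the 4 genotypes. Of 10 myeloid genes 3 had a peak, of 5 plasma cell genes 4, of 5 erythroid genes 4 and of 5 stromal genes 2, and no promoter of these lists was an opening promoter peak. The summed ranges over the mice, overlapping between all genotypes, were 33 to 39.2 CPM for myeloid, 199.9 to 226 for plasma cell and 15.6 to 21.3 for stromal genes. Erythroid genes summed to 73.6 to 77 CPM in WT mice, above all C mice (62.7 to 70.1) and all CK mice (64.2 to 72.3), while the K mice (64.3 to 79.9) overlapped with all. The part of this difference in the results was not tested. The promoter peak of Crebbp held 40.2 ± 1.48 CPM for WT, 39.1 ± 2.03 for C, 43.8 ± 2.8 for K and 45.1 ± 1.09 for CK mice, and that of Kmt2d 41.6 ± 2.09 CPM for WT, 42.1 ± 1.26 for C, 42.1 ± 2.16 for K and 44.2 ± 1.03 for CK mice (mean ± SD). A promoter peak does not check the deletion of floxed exons, so these values say nothing about the labels. The mice are described as female, but 9 of 17 libraries had over 100 fragments at the single-copy Y chromosome genes (WT 1 and 2, C 1 and 2, K 1, 3 and 4, CK 1 and 4) and 8 had at most 1. Values within both kinds of library are therefore given beside the pooled ones. The libraries also differed in how signal followed base composition. The median log2 deviation of the 10% of promoter peaks with the highest GC content minus that of the 10% with the lowest (the GC tilt) was -0.13 ± 0.11 for WT, -0.13 ± 0.059 for C, 0.091 ± 0.11 for K and 0.13 ± 0.089 for CK (mean ± SD over mice). It moved with the genotype, and its part in the results was not tested.

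Upstream sequence is shown for 7 opening promoter peaks, chosen for a large CK ratio, a low p in K against C or a high CK signal. It was taken from the GRCm38 (mm10) genome as the 150 bases before the annotated start, with CG dinucleotides in capitals. The first 3 belong to protein-coding genes with a large CK gain: Kdelc2 at chr9:53383875-53384024 (plus strand), 1500009L16Rik at chr10:83722715-83722864 (plus strand) and Grip1 at chr10:119453680-119453829 (plus strand).
Kdelc2: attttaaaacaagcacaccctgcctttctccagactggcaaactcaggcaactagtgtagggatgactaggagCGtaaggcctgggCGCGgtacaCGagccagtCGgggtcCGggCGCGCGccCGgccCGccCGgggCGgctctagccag
1500009L16Rik: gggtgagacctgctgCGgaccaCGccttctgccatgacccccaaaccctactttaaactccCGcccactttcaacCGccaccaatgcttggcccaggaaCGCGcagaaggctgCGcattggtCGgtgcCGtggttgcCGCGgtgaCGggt
Grip1: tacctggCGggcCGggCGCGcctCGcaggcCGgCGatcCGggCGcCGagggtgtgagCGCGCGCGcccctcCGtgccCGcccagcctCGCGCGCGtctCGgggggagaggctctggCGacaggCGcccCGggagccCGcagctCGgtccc
The peak of 1500009L16Rik had means of 2.68 CPM (WT), 3.75 (C), 4.36 (K) and 6.2 (CK), a CK log2 ratio of 1.18. The peak of Grip1 had means of 1.31 CPM (WT), 1.59 (C), 1.51 (K) and 3.07 (CK), a CK log2 ratio of 1.17. Kdelc2 is described with the largest ratios. The stretches held 13, 12 and 26 CG dinucleotides and 64%, 63.3% and 82% G and C. The next 2 differed between K and C: Steap3 at chr1:120265285-120265434 (minus strand) and Gpr62 at chr9:106465939-106466088 (minus strand).
Steap3: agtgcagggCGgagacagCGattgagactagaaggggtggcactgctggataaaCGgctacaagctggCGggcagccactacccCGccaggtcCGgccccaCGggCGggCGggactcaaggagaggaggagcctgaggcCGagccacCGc
Gpr62: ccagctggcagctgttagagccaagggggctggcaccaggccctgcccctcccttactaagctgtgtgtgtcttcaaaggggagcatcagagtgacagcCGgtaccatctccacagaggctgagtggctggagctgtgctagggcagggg
The Gpr62 stretch held a single CG dinucleotide, and that of Steap3 held 11. Most of the Gpr62 stretch lies outside its peak (chr9:106464700-106465950), and the peak itself had a GC content of 70.6%. The last 2 are among the opening promoter peaks of highest CK signal: Aff4 at chr11:53350683-53350832 (plus strand) and Aig1 at chr10:13868981-13869130 (minus strand).
Aff4: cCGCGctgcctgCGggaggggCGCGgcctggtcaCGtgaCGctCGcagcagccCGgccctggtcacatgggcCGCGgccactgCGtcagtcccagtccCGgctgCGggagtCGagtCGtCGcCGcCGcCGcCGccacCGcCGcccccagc
Aig1: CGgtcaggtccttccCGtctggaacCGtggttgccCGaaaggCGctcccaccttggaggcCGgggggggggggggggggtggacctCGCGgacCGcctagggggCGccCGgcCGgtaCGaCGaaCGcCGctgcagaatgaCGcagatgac
They held 23 and 17 CG dinucleotides, and neither they nor the other 5 stretches held CCGGAAG, the core bound by ETS factors, on either strand.

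The opening promoter peaks were weakly accessible sites in WT cells, with a median of 3.53 CPM per kb of peak beside 20.4 over all promoter peaks, and their summed signal differed by genotype in steps. Summed over the 1170 peaks, the signal was 8615, 8582, 8121 and 7403 CPM in the WT mice, 9883, 9524, 9567 and 9212 in the C mice, 11593, 10712, 10704 and 10497 in the K mice and 12350.1, 12172, 12374, 12099 and 11957 in the CK mice. The group means were 8181 ± 565, 9546 ± 274, 10877 ± 488 and 12190.2 ± 175 CPM (SD), and no mouse of 1 genotype overlapped with another genotype. WT 4 had the lowest sum of all mice, and K 1 the highest of the K mice. The choice of peaks fixed the distance of CK from WT, and every comparison with WT shares its 4 libraries with that choice.

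**Figure D1:**
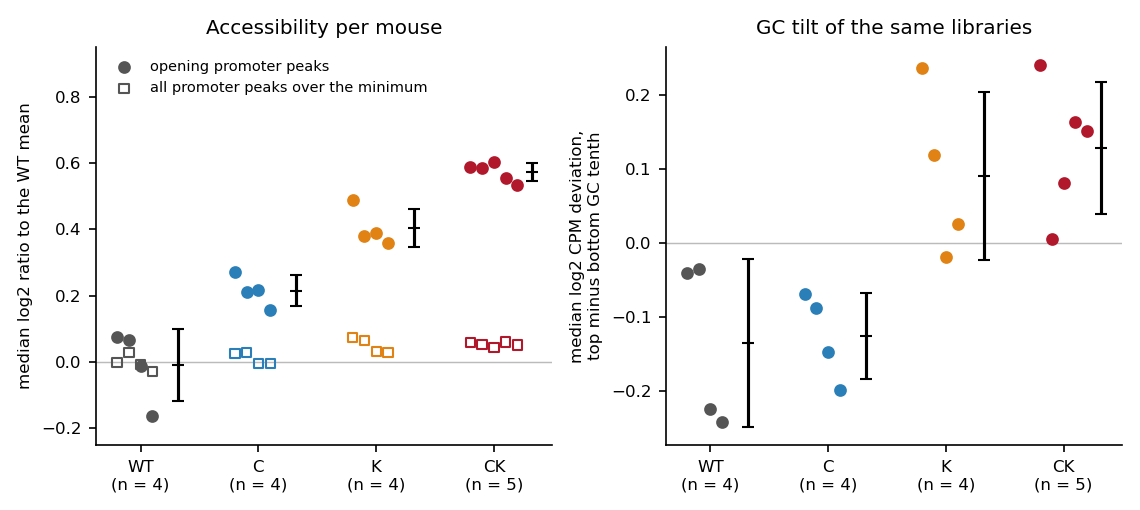
Left, the median log2 ratio of each mouse to the WT mean over the 1170 opening promoter peaks (filled circles) and over all 15184 promoter peaks (open squares); right, the GC tilt of the same libraries. Each point is 1 mouse and bars are mean ± SD; the K mice lie between 0.36 and 0.49 on the left, above all C mice, and the GC tilt of 3 of 4 K mice and of all CK mice is above 0.

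Measured against WT, both single heterozygotes were shifted in the direction of CK at most of these peaks, K further than C. The median log2 ratio over the 1170 peaks was 0.22 in C (middle 50% of peaks 0.12 to 0.33) and 0.41 in K (0.30 to 0.52), against 0.56 in CK. Over all promoter peaks the same medians were 0.012, 0.049 and 0.053. The C mean was above the WT mean at 1104 of the 1170 peaks (94.4%, beside 57.1% of all promoter peaks) and the K mean at 1161 (99.2%, beside 68.9%). All 4 C mice lay above all 4 WT mice at 251 opening promoter peaks (21.5%), where 3.89% of all 65483 peaks did so. All 4 K mice lay above all WT mice at 645 (55.1%), beside 6.05% of all peaks, and all 5 CK mice at 923 (78.9%), beside 7.16%; the shared WT libraries and the choice of peaks raise these shares, so nothing is read from them.

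The order WT, C, K, CK in the means held at 844 opening promoter peaks (72.1%, beside 19.3% of all promoter peaks). The choice of peaks put CK above WT, which raises this share. K reached a log2 ratio of 0.4 by itself at 487 peaks where C did not, C at 44 where K did not, both at 120 and neither at 519 (44.4%). Over all promoter peaks these counts were 541, 64, 122 and 14457. Among the 519 opening promoter peaks the medians were 0.17 in C, 0.30 in K and 0.48 in CK mice. The peaks where only K passed the limit among the single heterozygotes had a median GC content of 63.3%, and those where only C did 56.4%. The CK ratio was above the sum of the C and K ratios on the log2 scale at 463 peaks (39.6%, beside 45.9% of all promoter peaks), and the K mean was at or above the CK mean at 84 and the C mean at 20. Among libraries with Y signal the median log2 ratios to WT were 0.18 in C and 0.35 in K, and among those without it 0.27 and 0.46.

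**Figure D2:**
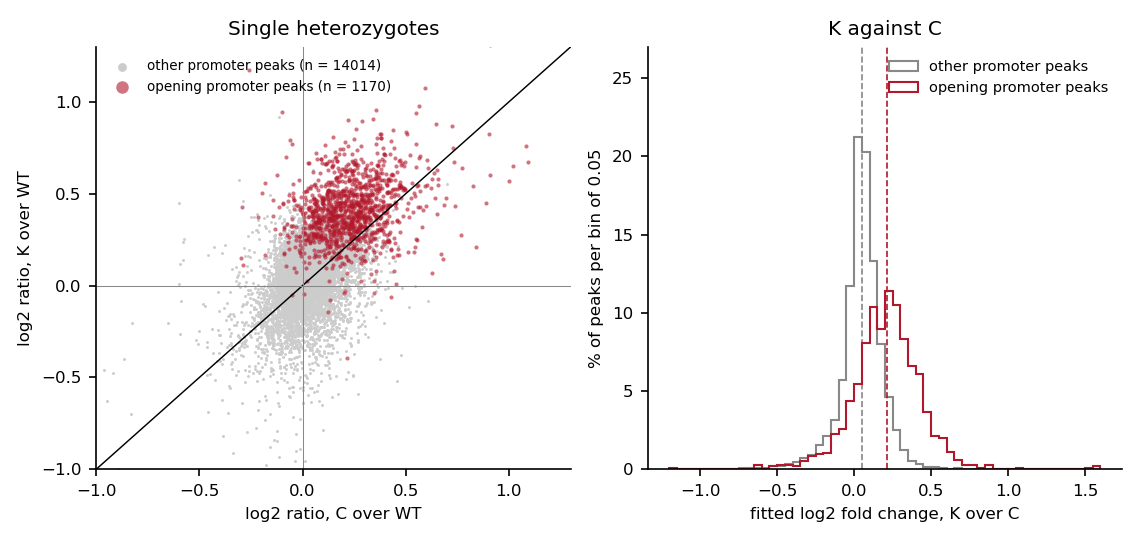
Left, log2 ratio to WT in K (vertical) against C (horizontal) for opening promoter peaks (red) and other promoter peaks (grey), 1 point a peak, with the line of equal ratios; 6 opening and 7 other peaks lie outside the range drawn. Right, the share of peaks by fitted log2 fold change of K over C in bins of 0.05, with dashed medians; the red dashed line sits at 0.21 and most red points lie above the line.

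K against C is the comparison that shares no library with the choice of peaks, and it was tested by edgeR over all 65483 peaks. At an adjusted p under 0.01, 33 opening promoter peaks were higher in K than in C and 1 was lower, where 0.283% of all peaks were called higher and 0.505% lower (185 and 331 peaks). Among all 15184 promoter peaks 101 were higher and 44 lower. The 33 and 1 peaks are 2.82% and 0.0855% of the opening promoter peaks. With peaks centred in bins of GC content before the fit the split was 12 higher and 2 lower. The median fitted log2 fold change of K over C was 0.21 over the 1170 peaks and 0.058 over all promoter peaks, and 1010 of 1170 were above 0 (86.3%, beside 73.6%). With GC bins these medians were 0.12 and 0.015. All 4 K mice lay above all 4 C mice at 254 opening promoter peaks (21.7%), beside 4.28% of all peaks and 11.7% of promoter peaks, and below them at 7 (0.598%), beside 6.59% of all peaks and 3.52% of promoter peaks. The ratio of mean CPM of K over C had a median of 0.17 on the log2 scale in libraries with Y signal (3 K and 2 C mice) and 0.17 in those without (1 and 2), with 0.012 and 0.071 over all promoter peaks. Leaving out any 1 C or K mouse other than K 3 lowered the 33 to between 4 and 19, with 4 left without K 1, 6 without C 4, 11 without C 2, 15 without C 1 or K 4, 17 without K 2 and 19 without C 3.

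The 5 peaks of lowest adjusted p were all higher in K, and the ranges of the K and CK mice overlapped at each. Sipa1l3, which encodes a protein of the Rap GTPase-activating family, had a peak at chr7:29338240-29339410 at a transcript start other than the gene's outermost one (GRCm38, coordinates as deposited). It held 4.65, 5.02, 4.66 and 5.3 CPM for WT mice, 5.35, 4.44, 3.77 and 4.74 for C mice, 9.97, 9.04, 10.5 and 8.65 for K mice and 9.26, 8.94, 8.19, 9.01 and 8.75 for CK mice. No K or CK mouse was as low as a C or WT mouse (fitted log2 fold change of K over C 1.08 ± 0.11 (SE), adjusted p = 8.19e-06). Steap3, a reductase that supplies ferrous iron from endosomes, had its peak (chr1:120264679-120265893) likewise at an inner transcript start. It held 23.4, 20.8, 23 and 23.3 CPM for WT mice, 22.3, 18.9, 21.1 and 19.6 for C mice, 34, 28.5, 31.8 and 31 for K mice and 28.6, 35.5, 34, 30.1 and 26.6 for CK mice. The K and CK mice were again above all others (fitted log2 fold change of K over C 0.64 ± 0.079 (SE), adjusted p = 8.49e-05). Prkar2b, a regulatory subunit of protein kinase A, held 25.7, 28, 24.4 and 23.9 CPM for WT mice, 24.5, 22.9, 28.5 and 23 for C mice, 39.8, 35.2, 32 and 35.5 for K mice and 36.3, 31.5, 34.9, 40.7 and 36.8 for CK mice at chr12:32060525-32061848. The K and CK mice lay above all C and WT mice there too (fitted log2 fold change of K over C 0.56 ± 0.084 (SE), adjusted p = 7.39e-04).

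Tcf4, an E protein transcription factor of B cells, had 2 opening promoter peaks at starts of alternative transcripts. The larger, at chr18:69498625-69500013, held 28.2, 28, 21 and 25.9 CPM for WT mice, 30.7, 31.5, 35.3 and 27.7 for C mice, 43, 38, 46.1 and 47.6 for K mice and 46.8, 48.3, 45.5, 46.6 and 44.4 for CK mice. The C mice lay between 27.7 and 35.3 CPM, overlapping the WT mice, and all K and CK mice were higher (fitted log2 fold change of K over C 0.51 ± 0.080 (SE), adjusted p = 0.00121). The smaller Tcf4 peak had means of 2.43 CPM for WT, 2.77 for C, 4.15 for K and 4.65 for CK and did not pass (adjusted p = 0.0494). Pwwp2b, a PWWP domain protein, held 11, 10.7, 9.85 and 9.46 CPM for WT mice, 11.1, 11.5, 10.6 and 9.26 for C mice, 17.4, 15.2, 16.4 and 14.1 for K mice and 17.8, 14.1, 15.2, 16 and 14.7 for CK mice at chr7:139247663-139249904. Its K and CK mice did not overlap with its C and WT mice (fitted log2 fold change of K over C 0.60 ± 0.097 (SE), adjusted p = 0.00159).

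Cntn2, an adhesion molecule of axons, was the 1 opening promoter peak lower in K than in C. At chr1:132540809-132543124 it held 8.52, 7.92, 8.61 and 7.22 CPM for WT mice, 15.3, 15.2, 14.4 and 13.3 for C mice, 9.56, 8.37, 8.68 and 10.8 for K mice and 15.6, 15, 14.9, 10.4 and 11.2 for CK mice. All C mice lay above all WT and K mice, and the CK mice spread from the K level to above the C level (fitted log2 fold change of K over C -0.61 ± 0.12 (SE), adjusted p = 0.00598). Leaving out any single C mouse, or K 1, K 2 or K 3, took its adjusted p to between 0.0136 and 0.0201. The other 28 called peaks had fitted log2 fold changes between 0.35 at an inner transcript start of Slc29a4, a nucleoside and monoamine transporter (32.1 CPM in C and 40.01 in K), and 2.14 at Xkr6. The Xkr6 value rests on K 1 and K 2, since its K mice held 26.2, 21.9, 3.97 and 3.89 CPM while its C mice held 3.54, 3.16, 2.74 and 3.51 and its CK mice 3.45, 3.96, 5.11, 4.9 and 4.12.

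The other called peaks included genes known from neurons, chosen for naming after their values were seen. Dclk2, a doublecortin-like kinase of microtubules, had a fitted log2 fold change of 0.45 (15 against 20.2 CPM, adjusted p = 0.00297). Cux2, a homeobox transcription factor, had 0.53 (11.1 against 15.8 CPM, adjusted p = 0.00443). Ece2, which processes peptide hormones, had 0.90 (2.92 against 5.36 CPM, adjusted p = 0.00316). Apbb2, an adaptor of the amyloid precursor protein, had 0.42 (16.2 against 21.3 CPM, adjusted p = 0.0048). Signalling and cytoskeletal genes were also there: the orphan receptor gene Gpr62 had 0.67 (7.32 against 11.4 CPM, adjusted p = 0.00293), the AMPK-related kinase gene Nuak1 0.61 (11.2 against 16.8 CPM, adjusted p = 0.00346), the beta-spectrin gene Sptbn1 0.54 (10.4 against 14.8 CPM, adjusted p = 0.00315) and the AKT inhibitor gene Phlda3 0.64 (3.58 against 5.45 CPM, adjusted p = 0.00446). Of the 33 peaks, 32 lay at protein-coding genes and 28 had the outermost start of a gene, the assigned or another, within 1 kb. A C over WT log2 ratio within 0.2 of 0 was found at 30, and the median over the 33 was 0.020 in C, 0.54 in K and 0.58 in CK. In 9 of the 33 the K mean was above the CK mean.

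**Figure D3:**
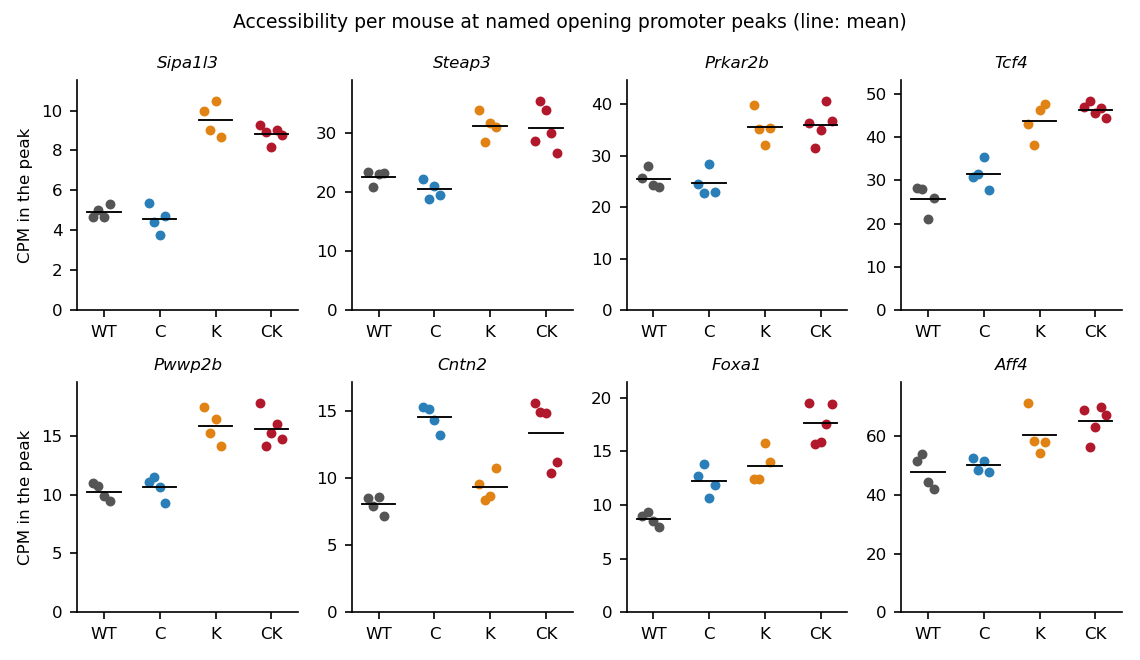
CPM in the peak of each mouse (1 point a mouse, line at the group mean, axes from 0) at 8 named opening promoter peaks. At Sipa1l3, Steap3, Prkar2b and Pwwp2b the K and CK mice lie above the C and WT mice, at Cntn2 the C mice lie above the K mice, and at Foxa1 the means go from 8.67 CPM in WT through 12.2 and 13.7 to 17.6 in CK.

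The largest CK gains were at pseudogene peaks at which the mice fell into a high and a low set. The peak at Gm47385 (chr12:23188865-23190012) held 0.157, 0.103, 0.0476 and 0.0547 CPM for WT mice, 0.191, 2.52, 0.103 and 0.0532 for C mice, 0.26, 5.25, 4.08 and 0.139 for K mice and 0.096, 3.36, 3.95, 4.55 and 4.004 for CK mice. The high mice were C 2, K 2, K 3 and CK 2 to CK 5, and all others were close to 0. The same 7 mice were the high ones at Gm48667 (chr12:20196203-20197662), with 0.366, 0.569, 0.571 and 0.711 CPM for WT mice, 0.335, 8.78, 0.155 and 0.16 for C mice, 0.104, 9.32, 8.68 and 0.416 for K mice and 0.528, 8.08, 11, 13.1 and 14.3 for CK mice. They were the high ones again, with a low set well above 0, at Gm49326 (chr12:17881241-17882534), with 8.26, 7.5, 7.99 and 6.12 CPM for WT mice, 10.2, 29.9, 8.94 and 7.35 for C mice, 6.65, 30.8, 30.4 and 6.94 for K mice and 6.19, 30.8, 32, 30.03 and 32.6 for CK mice. All 3 peaks lie on chromosome 12, and their split crosses the genotypes, CK 1 being low at each. At Gm12112 (chr11:32911280-32912421) the high mice were all of C and CK and K 3, with 1.57, 1.24, 1.05 and 1.15 CPM for WT mice, 15.4, 17, 18.4 and 18.2 for C mice, 1.09, 1.23, 20.6 and 1.8 for K mice and 15.8, 17.6, 17.7, 16.7 and 16 for CK mice. Pseudogenes can have near-identical copies elsewhere. Whether reads from such copies entered these values was not tested, and they are given as uncertain. In all, 31 opening promoter peaks were assigned to a pseudogene, where any protein-coding gene within 1 kb was taken first.

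**Figure D4:**
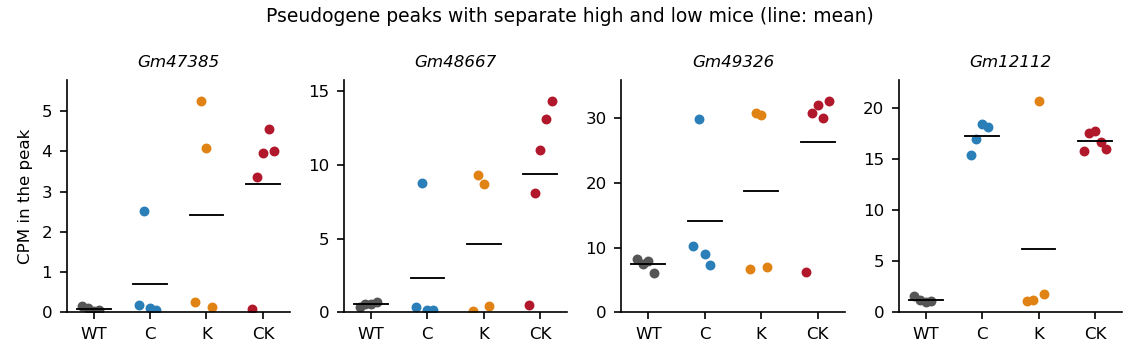
CPM in the peak of each mouse (1 point a mouse, line at the group mean, axes from 0) at 4 pseudogene peaks among those with the largest CK over WT ratios. The mice fall into a high and a low set that cross the genotypes, for example 6.19 CPM in CK 1 beside 30.8 in CK 2 at Gm49326.

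The other 6 of the 10 largest ratios were 1 further pseudogene and 5 protein-coding genes. Prelid2, of a family of mitochondrial lipid transfer proteins, held 0.836, 0.88, 1.24 and 1.26 CPM for WT mice, 1.91, 2.1, 2.27 and 2.66 for C mice, 1.14, 1.56, 1.96 and 2.17 for K mice and 2.64, 3.31, 3.42, 2.65 and 3.49 for CK mice. Ift122, a subunit of the intraflagellar transport complex of cilia, held 1.36, 1.09, 1.67 and 1.04 CPM for WT mice, 5.21, 4.67, 5.11 and 3.67 for C mice, 3.89, 5.08, 1.48 and 1.48 for K mice and 5.23, 3.9, 5.4, 1.8 and 1.83 for CK mice, and its K and CK mice each split into high and low ones. The Ift122 peak was near an inner transcript start. The pseudogene Gm6012 had means of 8.03 ± 3.06 CPM for WT, 12.2 ± 3.44 for C, 17 ± 4.86 for K and 21 ± 7.71 for CK mice. Ranbp17, an importin-beta family transport receptor, held 6.32, 8.64, 4.95 and 5.41 CPM for WT mice, 9.99, 9.24, 10.5 and 10.1 for C mice, 12, 8.26, 14.8 and 11.8 for K mice and 15.9, 12.7, 16.7, 16.8 and 19.1 for CK mice, all CK mice being above all WT mice. Kdelc2, a glucosyltransferase of the endoplasmic reticulum whose upstream sequence is given above, held 2.82, 2.79, 2.76 and 3.39 CPM for WT mice, 3.97, 3.11, 3.87 and 4.21 for C mice, 5.4, 5.47, 3.86 and 5.6 for K mice and 7.77, 7.1, 5.64, 6.61 and 8.01 for CK mice. Its CK mice were all above its K mice, of which K 3 was the lowest. Zar1, a gene of oocytes, had means of 1.91 ± 0.47 CPM for WT, 2.63 ± 0.491 for C, 3.52 ± 0.762 for K and 4.57 ± 1.08 for CK mice.

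The opening promoter peaks with the highest CK signal had smaller ratios than these. Per kb of peak, Map1lc3a held 39.2 CPM in CK and Aff4 33.8, while the median opening promoter peak held 5.44 and the median promoter peak 21.4. Aff4, the scaffold of the super elongation complex, held 51.5, 54, 44.6 and 42 CPM for WT mice, 52.7, 48.5, 51.7 and 47.9 for C mice, 71.3, 58.3, 54.4 and 58 for K mice and 69, 56.3, 63.2, 70.1 and 67.3 for CK mice. WT and C mice overlapped there, and all K and CK mice were above both. The peak assigned to Lrba, which sorts membrane proteins in vesicles, held 39.7, 43.8, 41.3 and 38 CPM for WT mice, 46.5, 50.6, 48.7 and 49.2 for C mice, 57.4, 50.8, 49.1 and 51.1 for K mice and 56.3, 63.2, 65.4, 51.6 and 59.3 for CK mice, with every C, K and CK mouse above every WT mouse. This peak also had a start of Mab21l2 within 1 kb, so it cannot be given to Lrba alone. At Aig1, a lipid hydrolase gene, the means were 41.3 ± 4.12 CPM for WT, 47.5 ± 3.08 for C, 51.5 ± 2.94 for K and 55.6 ± 3.92 for CK mice. At Mxra8, a cell surface adhesion protein, they were 40.4 ± 2.3 CPM for WT, 45.8 ± 2.35 for C, 48.4 ± 2.42 for K and 55.5 ± 1.6 for CK mice. Map1lc3a, an autophagosome protein of the LC3 family, had 40.4 ± 3.1 CPM for WT, 41.9 ± 1.4 for C, 51.8 ± 7.12 for K and 53.7 ± 7.1 for CK mice, the C mean lying within 1 SD of the WT mean. The zinc finger genes Zbtb10 and Zfp827 had log2 ratios to WT of 0.063 for C, 0.28 for K and 0.48 for CK mice, and of 0.11 for C, 0.48 for K and 0.60 for CK mice. Akap1, which anchors protein kinase A to mitochondria, had 0.29 for C, 0.38 for K and 0.45 for CK mice. The uncharacterised gene 3110070M22Rik, which shares its peak with Tmem267, had 0.65 for C, 0.39 for K and 0.67 for CK mice, and Tcf4 completed the 10.

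Near the limits of the rule the values differed little from the peaks left out. Rnd3 and Efna5 had the smallest log2 ratios inside, 0.40004 for Rnd3 and 0.40021 for Efna5, while Igsf3 and Lpar3 stood just outside at 0.39988 for Igsf3 and 0.39988 for Lpar3. Camk1 and Alk had the lowest CK means inside, 3.002 CPM for Camk1 and 3.006 for Alk, and Pcsk2 and Insyn1 the highest outside, 2.992 for Pcsk2 and 2.987 for Insyn1.

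By gene list, opening promoter peaks were found most often, among the lists counted, at genes of development and of growth factor signalling. Of 16719 genes with a promoter peak, 1377 (8.24%) had an opening one, and this share is set beside each list. Of developmental transcription factors it was 35 of 84 genes (41.7%), of TGF-beta and BMP pathway genes 12 of 35 (34.3%) and of Wnt pathway genes 13 of 47 (27.7%). The median promoter peak of these lists held 4.99, 11.6 and 11.1 CPM per kb in WT, beside 20.4 for all promoter peaks, and a GC content of 60.3%, 62.4% and 62.4%, beside 55.5%. These lists thus had less WT signal and a higher GC content than promoter peaks at large. The part of both measures in the shares was not tested.

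Among developmental transcription factors, the median log2 ratio to WT over all 114 promoter peaks of the list was 0.11 for C, 0.20 for K and 0.33 for CK mice. K against C called 1 of them higher in K and none lower, beside 0.665% and 0.29% of all promoter peaks, and it called no opening one. Foxa1, a pioneer factor of endoderm, held 8.94, 9.31, 8.52 and 7.93 CPM for WT mice, 12.7, 13.8, 10.6 and 11.9 for C mice, 12.5, 12.4, 15.8 and 14 for K mice and 19.5, 15.7, 15.9, 17.6 and 19.4 for CK mice at chr12:57545056-57547346. Every C, K and CK mouse was above every WT mouse there. Gata2, a factor of blood stem cells and mast cells, had 2 opening promoter peaks, and the one with the larger ratio had means of 1.8 CPM for WT, 2.32 for C, 2.46 for K and 3.34 for CK mice. The homeobox gene Hoxd8 had log2 ratios of 0.24 for C, 0.61 for K and 0.79 for CK mice, and the larger-ratio peak of Hoxa10 0.050 for C, 0.29 for K and 0.78 for CK mice. That Hoxa10 peak lay at an inner transcript start.

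In the Wnt pathway, 5 of the 13 genes with an opening promoter peak were Frizzled receptors, beside the co-receptors Lrp5 and Lrp6 and the ligand gene Wnt2b. The median over the 53 promoter peaks of the list was 0.052 for C, 0.15 for K and 0.20 for CK mice. Wnt2b, a ligand, had 0.26 for C, 0.57 for K and 0.76 for CK mice. The receptors were Fzd1, Fzd2, Fzd3, Fzd6 and Fzd8. Fzd6 held 1.41, 1.76, 1.71 and 1.86 CPM for WT mice, 1.62, 2.06, 2.94 and 2.24 for C mice, 2.96, 2.12, 2.7 and 2.27 for K mice and 4.37, 4.12, 4.1, 2.75 and 2.92 for CK mice, with all CK mice above all WT mice. Fzd8 had means of 1.73 CPM for WT, 2.86 for C, 2.44 for K and 3.32 for CK mice, and Fzd1 4.87 CPM for WT, 6.19 for C, 9.22 for K and 8.19 for CK mice, K being above CK at Fzd1. None of the list passed in K against C.

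In the TGF-beta and BMP pathway, the genes were ligands (Bmp6, Inhba and Tgfb2), receptors (Acvr1, Acvr2a and Tgfbr3), binding proteins (Fst, Nog, Ltbp1, Ltbp3 and Ltbp4) and the transducer gene Smad1. The median over 40 promoter peaks was 0.061 for C, 0.18 for K and 0.25 for CK mice, and none passed in K against C. Acvr1, a type I receptor for BMPs, held 3.76, 3.21, 3.14 and 3.23 CPM for WT mice, 3.78, 3.29, 3.15 and 3.41 for C mice, 5.09, 4.13, 4.61 and 3.61 for K mice and 6.28, 5.74, 6.41, 6.76 and 6.06 for CK mice. The CK mice lay above all mice of the other 3 genotypes at this peak, which also had a start of Upp2 within 1 kb. Tgfbr3, the co-receptor betaglycan, had means of 8.16 ± 1.25 CPM for WT, 9.77 ± 0.746 for C, 11.5 ± 1.002 for K and 14.5 ± 2.09 for CK mice. Ltbp1, which tethers latent TGF-beta to the matrix, had log2 ratios of 0.31 for C, 0.43 for K and 0.71 for CK mice, and Fst, the activin antagonist follistatin, 0.34 for C, 0.43 for K and 0.70 for CK mice.

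Receptor tyrosine kinase, ephrin and semaphorin genes had opening promoter peaks at 10 of 44 genes (22.7%), ion channel and neurotransmitter receptor genes at 12 of 51 (23.5%) and nuclear receptor genes at 5 of 25. The medians over all their promoter peaks were 0.025 for C, 0.13 for K and 0.17 for CK mice for the first, 0.059 for C, 0.17 for K and 0.17 for CK mice for the second and 0.013 for C, 0.12 for K and 0.14 for CK mice for the third. K against C called 2 of 56, 0 of 66 and 2 of 33 of these promoter peaks higher in K, and 0 lower. None of those called was an opening one. Of all promoter peaks 0.665% were called higher and 0.29% lower. The guidance ligands Sema6a and Sema6d had log2 ratios of 0.38 for C, 0.41 for K and 0.81 for CK mice, and of 0.12 for C, 0.67 for K and 0.81 for CK mice. Igf1r, the receptor of insulin-like growth factor, had 0.15 for C, 0.48 for K and 0.65 for CK mice, and Fgfr3, a receptor of fibroblast growth factors, 0.32 for C, 0.49 for K and 0.60 for CK mice. Among channel genes, the larger-ratio peak of the calcium channel gene Cacna1a had 0.16 for C, 0.44 for K and 0.70 for CK mice, and Cacna2d2, of another calcium channel subunit, had 0.47 for C, 0.55 for K and 0.62 for CK mice. Nr3c2, the mineralocorticoid receptor, held 16.8, 20.1, 18.4 and 14.9 CPM for WT mice, 22.9, 21.2, 22 and 20.4 for C mice, 22.1, 23.2, 21.4 and 22.9 for K mice and 29.5, 31.8, 32.2, 29.5 and 29.6 for CK mice, and CK mice were above all others. Thrb, a thyroid hormone receptor, had 0.23 for C, 0.35 for K and 0.67 for CK mice, Rora, an orphan receptor of lymphoid cells among others, 0.048 for C, 0.32 for K and 0.50 for CK mice, and the larger-ratio peak of Nr4a2 0.12 for C, 0.49 for K and 0.74 for CK mice. The peaks given for Sema6d, Cacna1a, Cacna2d2 and Rora lay at inner transcript starts.

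Lists of genes that GC B cells use held few opening promoter peaks, as did promoter peaks of like WT signal at large. Of 35 B-lineage and GC transcription factor genes 1 had any (Tcf4), of 31 B-cell receptor and CD40 signalling genes 1, and of 25 antigen presentation genes, 50 cell cycle genes and 55 ribosomal protein genes 0. The 1 signalling gene was Tnfaip3, the NF-kappaB inhibitor A20, with means of 10.2 ± 1.02 CPM for WT, 10.8 ± 1.13 for C, 12.1 ± 1.78 for K and 13.6 ± 2.2 for CK mice. Its peak lay at an inner transcript start, and its CK log2 ratio of 0.41 was close to the limit of 0.4. Median log2 ratios over all promoter peaks were -0.0059 for C, 0.021 for K and 0.0038 for CK mice for the transcription factors, -0.013 for C, -0.025 for K and -0.020 for CK mice for the signalling genes and -0.0085 for C, -0.017 for K and -0.021 for CK mice for antigen presentation. The median promoter peaks of these 3 lists held 25.3, 28.9 and 38.4 CPM per kb in WT. In the 10% groups of promoter peaks by WT signal that hold these values, 0.725%, 0.132% and 0% were opening. The part of WT signal in the low counts was not tested. In K against C, 2 of the 66 peaks of B-lineage factors were called, both higher in K. Of all promoter peaks 0.665% were called higher and 0.29% lower. None of the other lists' peaks in this paragraph were called, apart from 1 cell cycle peak lower in K.

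Of the remaining lists, chromatin regulators had 5 of 61 genes (8.2%), Notch pathway genes 4 of 36 (11.1%), MAPK genes 4 of 64 (6.25%) and interferon-stimulated genes 2 of 24 (8.33%). The deacetylase gene Hdac9 had log2 ratios of 0.11 for C, 0.71 for K and 0.93 for CK mice, Tet1, which oxidises methylated cytosine, 0.58 for C, 0.32 for K and 0.89 for CK mice, Kdm5b, a histone demethylase, 0.15 for C, 0.50 for K and 0.61 for CK mice, and the Polycomb gene Bmi1 0.33 for C, 0.37 for K and 0.52 for CK mice. Notch genes were Heyl, a target (0.24 for C, 0.49 for K and 0.73 for CK mice), Dll3, a ligand (0.30 for C, 0.55 for K and 0.73 for CK mice), Maml3, a coactivator (0.083 for C, 0.42 for K and 0.51 for CK mice), and Jag1, a ligand (0.15 for C, 0.27 for K and 0.51 for CK mice). The Dll3 peak lay at an inner transcript start. In the MAPK list Dusp15, Spry2, Mras and Mapk13 had CK log2 ratios of 0.80 for Dusp15, 0.77 for Spry2, 0.50 for Mras and 0.43 for Mapk13. The interferon-stimulated genes were Rsad2, the antiviral enzyme viperin, with means of 4.6 CPM for WT, 6.02 for C, 6.2 for K and 8.62 for CK mice, and Mx2. Mx2 held 6.69, 7.24, 9.09 and 7.65 CPM for WT mice, 7.69, 5.63, 8.52 and 6.92 for C mice, 5.92, 7.59, 7.52 and 13.6 for K mice and 6.76, 7.21, 7.81, 15.5 and 14.6 for CK mice. Its CK mean rests on CK 4 and CK 5, since CK 1 to CK 3 lay within the range of the WT mice, and K 4 stood apart from the other K mice.

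The opening promoter peaks had on the whole a higher GC content than promoter peaks at large, with overlapping ranges. Their median GC content was 60.8% (middle 50% of peaks 55.6 to 65.5), beside 55.5% (50.8 to 60.1) for all promoter peaks, and they held 6.28 CG dinucleotides per 100 bases, beside 4.66. They made up 3.03% of the 10% of promoter peaks with the lowest GC content and 25.4% of the 10% with the highest. In WT the median was 3.53 CPM per kb, beside 20.4, and the share was 43.6% in the 10% with the lowest WT signal per kb, 18.6% and 9.09% in the next 2 groups of that size and 0% in the top 2. WT values entered the rule, so the low WT level is a description. The difference in GC content was also present at like WT signal. In the lowest 10% by WT signal per kb, opening promoter peaks had a median of 60.7% and the others 50.5%, and in the third group 61.9% and 51.7%. Their median length was 1412 bases, beside 1496. The CK to WT ratio that chose the peaks was not corrected for the GC tilt, which was -0.13 ± 0.11 in WT and 0.13 ± 0.089 in CK mice. Centring in GC bins changed the number of peaks chosen, as given below. The part of the tilt in the GC difference was not tested, and the comparison at like WT signal does not remove it.

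**Figure D5:**
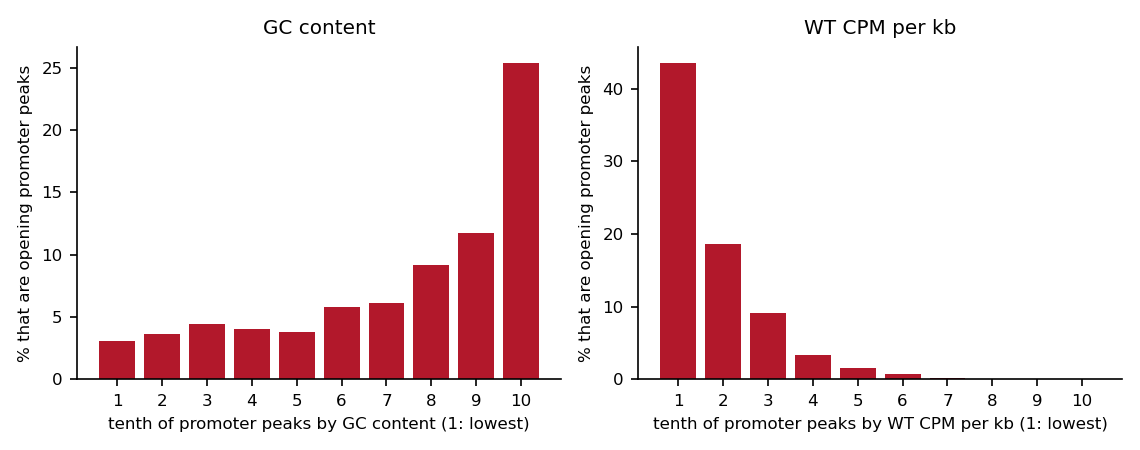
Percent of promoter peaks that are opening promoter peaks (bars from 0) in 10 groups of equal size by GC content (left) and by WT CPM per kb of peak (right), group 1 being the lowest. The share goes from 3.03% to 25.4% with GC content, and from 43.6% to 0% with WT signal.

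The fitted log2 fold change of K over C also followed GC content. Its median over the opening promoter peaks was 0.056 in the lowest 10% by GC content and 0.31 in the highest, and over the other promoter peaks -0.045 and 0.15. Opening promoter peaks had the higher median in each of the 10 GC groups. The libraries' GC tilt, given above, runs the same way, with K and CK above C and WT, and its part in these values was not tested.

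Letters of known motifs were searched on both strands from 250 bases before to 50 after the start assigned to each peak. That was the nearest start of a protein-coding gene within 1 kb or, without one, the nearest of another gene. None of these strings holds another. GGGCGG, the GC box bound by SP factors, was in 63% of opening promoter peaks and 55.6% of all promoter peaks. CCGGAAG, the ETS core, was in 4.27% and 14.2%. In the lowest 10% by WT signal per kb it was in 3.32% of opening and 4.08% of other peaks, in the second group in 4.61% and 4.29%, and in the third in 8.7% and 7.97%. In the fourth group it was in 5.88% of the 51 opening and 12% of the other peaks, and in the fifth in 0% of 23 and 15.4%. CCAAT, bound by NF-Y, was in 26.4% and 34.5%, AAGATGGCG, bound by YY1, in 0.94% and 2.77%, TATAAA, the TATA box, in 6.92% and 7.47%, and GCGCATGCG, bound by NRF1, in 1.62% and 2.69%. CRE (TGACGTCA), E-box (CACGTG), octamer (ATGCAAAT) and AP-1 letters (TGAGTCA or its partner TGACTCA) were in 2.05%, 7.01%, 1.2% and 3.08% of opening promoter peaks and 2.79%, 8.76%, 1.78% and 3.79% of all promoter peaks.

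By kind of assigned gene the opening promoter peaks had shares close to those of promoter peaks at large. A protein-coding gene within 1 kb was taken before a nearer gene of another kind. Protein-coding genes were assigned at 1034 (88.4%, beside 87.8%), lincRNA or antisense genes at 64 (5.47%, beside 5.45%) and pseudogenes at 31 (2.65%, beside 2.56%). The assigned start lay inside the peak at 1029 (88%, beside 87.6%). The outermost start of some gene, assigned or not, was within 1 kb of 965 (82.5%, beside 81.6%), and the rest had only inner transcript starts. Starts of protein-coding genes on both strands, however, were within 1 kb of fewer, 39 (3.33%, beside 8.42%). By chromosome the share of promoter peaks that were opening ranged from 4.88% on chromosome 17 to 10.9% on chromosome 12.

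Promoter peaks with a lower mean in CK than in WT, by the same limit, had a lower GC content. At a log2 ratio of -0.4 or less there were 228 closing promoter peaks, with a median GC content of 47.9% and 1.12 CG dinucleotides per 100 bases. Pseudogenes were the assigned gene at 11.4%. The median log2 ratios of the closing promoter peaks were -0.15 in C and -0.38 in K. K against C called 5 of them higher and 22 lower (2.19% and 9.65%, beside 0.665% and 0.29% of all promoter peaks). The minimum of 3 CPM was set on the CK mean in both directions, which admits opening peaks with less in WT and leaves out peaks under it in CK, so the numbers of opening and closing peaks cannot be compared directly. The 1078 peaks opening by the same limits over 1 kb from any start had a median GC content of 49% and a WT median of 3.68 CPM per kb, near that of the opening promoter peaks. Their medians were 0.26 in C and 0.36 in K, and K against C called 18 higher and 4 lower (1.67% and 0.371%), with a median fitted log2 fold change of 0.12, beside 0.21 at promoters. The values of this paragraph were not corrected for GC content, in which the sets differed. The part of the GC tilt in the differences between them was not tested.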

How the data were processed

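ATAC-seq libraries of sorted splenic GC B cells from WT (n = 4), C (n = 4), K (n = 4) and CK (n = 5) mice were analysed. According to the methods and the file headers, the authors used a pipeline of the nf-core collection to align reads to mm10 (GRCm38) and to merge peaks into a consensus set. They deposited unnormalized counts of fragments in each peak, made by featureCounts 2.0.1, counting a fragment in every peak that it overlaps by a fraction of 0.2, so neighbouring peaks can share fragments. Whether reads were shifted for the transposase is not given in the sources used here. The sorted CB and CC libraries were not analysed here.

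CPM were computed by column totals and promoters defined by GENCODE transcript starts. K against C was tested by the quasi-likelihood test of edgeR 4.0.16 (R 4.3.3, TMM normalization, all 17 libraries, 1 coefficient per genotype) over 65483 peaks, with Benjamini-Hochberg adjustment and a threshold of 0.01. All adjusted p-values are from that fit. A minimum of 10 fragments in all removed 0 peaks. The fit was tested on simulated data. Named peaks were the 10 with the largest CK log2 ratio, the 10 with the highest CK mean, the called peaks of lowest adjusted p in each direction, and up to 4 per gene list by CK log2 ratio. Other named peaks, such as the further Frizzled genes and the called peaks known from neurons, were chosen after their values were seen. Some results that the rule would name are not reported here. The peaks, gene lists and tests were chosen with earlier results of these data known. Alternatives were DESeq2 1.42.0, other scalings, GC bins, other limits and leaving out mice. Sequence was read from the RefSeq GRCm38.p6 genome. Each library is 1 mouse, but litters and days are not given in the sources used here. Precision is limited by the spread between mice and, for peaks near 3 CPM, by the count of fragments.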

Additional observations from a re-analysis of the deposited data

Results flagged for a closer look

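Single mice stood apart from their group, by Dixon's criterion at 95%, in 12 of 108 groups of values of the named opening promoter peaks and library summaries. Over all opening promoter peaks the share was 5.28% of 4680 groups and over all promoter peaks 5.06%, near the 5% that chance gives.

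At the pseudogene peaks, Gm47385 had 2.516 CPM in C 2 beside 0.0532 to 0.191 in the other C mice, and 0.09595 CPM in CK 1 beside 3.36 to 4.55 in the other CK mice. Gm48667 had 8.784 CPM in C 2 beside 0.155 to 0.335 in the other C mice. Gm49326 had 29.88 CPM in C 2 beside 7.35 to 10.2 in the other C mice, and 6.189 CPM in CK 1 beside 30.03 to 32.6 in the other CK mice. Gm12112 had 20.65 CPM in K 3 beside 1.09 to 1.8 in the other K mice. At protein-coding genes the distances were smaller. Kdelc2 had 3.389 CPM in WT 4 beside 2.76 to 2.82 in the other WT mice, and 3.865 CPM in K 3 beside 5.4 to 5.6 in the other K mice. Zbtb10 had 35.23 CPM in C 3 beside 39.2 to 40.00 in the other C mice. Akap1 had 54.79 CPM in CK 5 beside 50.5 to 51 in the other CK mice. Zfp827 had 27.66 CPM in WT 4 beside 34.7 to 35.9 in the other WT mice. Steap3 had 20.85 CPM in WT 2 beside 23 to 23.4 in the other WT mice.

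Signal at single-copy Y chromosome genes was present in 9 of 17 libraries of mice described as female, at 1087 to 1317 fragments, and at 0 to 1 in the other 8. Both kinds occur in every genotype.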

How the results depend on the processing

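The number of opening promoter peaks, 1170, was 771 after centring in GC bins, 1863 at a log2 limit of 0.3, 511 at a higher log2 limit, 1797 with a CK minimum of 1 CPM and 415 with 10. Leaving out each WT or CK mouse gave 1006 to 1282. The median log2 ratio to WT was 0.18 for C in libraries with Y signal and 0.27 without it, and 0.18 to 0.25 with single mice left out, the lowest without WT 4. For K it was 0.31 with GC bins and 0.36 to 0.43 with single mice left out.

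In K against C, the 33 peaks higher and 1 lower in K became 72 and 1 by DESeq2, 142 and 2 at an adjusted p of 0.05, and 12 and 2 with GC bins. Without single mice they were 4 to 32 higher and 0 to 1 lower. The median log2 fold change was 0.12 with GC bins, 0.12 with GC bins and the block, and 0.17 to 0.24 without single mice. Fits with the replicate number as a replicate block gave 93 higher and 1 lower, or 20 and 2 with GC bins. Deviations of same-numbered C and K mice correlated at 0.21, -0.090, -0.020 and 0.052, and not every mouse correlated best with its own number. Whether mice of 1 number shared a litter or a day cannot be told from these values. Over all peaks, K against C gave 453 higher and 587 lower by DESeq2, 683 and 728 with the block, 119 and 253 with GC bins, and 1106 and 1265 at an adjusted p of 0.05.

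Of 755 recomputed values, 646 were of single peaks, of which 217 lost their call and 0 changed direction. The other 109 were summary values, of which 31 moved beyond the limits set for calling them the same and 78 did not. Sipa1l3, Steap3 and Prkar2b stayed called in all 18 alternatives to the K against C fit, Tcf4 in 17 and Gm17229, the least often, in 6. The causes of these changes were not tested. The settings with Y signal and without pseudogenes were chosen after seeing the data.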
